A study of Sus scrofa with 4 samples.

Results

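The bone morphogenetic protein (BMP) target genes ID1, ID2, ID3, ID4, MSX1, MSX2, SMAD6, SMAD9 and BAMBI were followed through the reprogramming of porcine fibroblasts. They are 9 of the 25880 genes of the count table, and each was found by its pig Ensembl identifier. RNA had been sequenced from 4 cultures, all derived from the ear skin of 1 post-neonatal pig. Fibroblasts (n = 1, passage 1) were the starting cells. The next stage was a culture of iNSLCs (neural stem cell-like cells induced from them; n = 1, passage 1), grown from dome-shaped colonies that formed in a medium made for naive-state pluripotent cells (NSM) after electroporation of episomal vectors with human reprogramming genes and a dominant-negative mouse Trp53. The last stage was 2 iPSC clones (pluripotent stem cells, passage 3), picked after iNSLCs had been moved to an embryonic stem cell medium (ESM) supplemented with IWP2, an inhibitor of WNT secretion, and with TGF-β1 and activin A. The study looked for loss of the vectors after more passages than these clones had gone through, so any of the reprogrammed cultures could still have carried them. Medium and cell state changed together, and in the iPSC clones the labelled passage changed with them, so these cannot be told apart. In bulk cultures, fewer cells of a type and less RNA per cell cannot be told apart either.

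BMP ligands are secreted proteins that join type I and type II receptor kinases at the cell surface. The active receptors phosphorylate SMAD1, SMAD5 and SMAD9, which bind SMAD4, enter the nucleus and switch on target genes. The ID genes are among the most direct of these targets in many cell types. ID proteins resemble basic helix-loop-helix factors but lack the part that binds DNA, so they capture E proteins such as TCF3 and keep them from pairing with lineage factors. MSX1 and MSX2 are homeobox repressors of limb, tooth, skull and neural crest development. SMAD6 and BAMBI are brakes on the pathway that it induces itself, SMAD6 as an inhibitory SMAD and BAMBI as a decoy receptor with no kinase domain. In mouse embryonic stem cells BMP signalling and ID proteins help to hold the undifferentiated state, whereas in human pluripotent cells of the primed kind BMP drives differentiation, and in the early ectoderm it opposes a neural fate.

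Total counts per library lay between 21640374 and 62421521, so 3 counts, taken here as the detection floor, corresponded to 0.0648 to 0.127 CPM (scaled counts: CPM, with the TMM correction for library composition). The labelled cell types were checked by marker lists. The summed level of 10 fibroblast markers was 138860 CPM in fibroblasts, 53546 CPM in iNSLCs, and 972 and 928 CPM in iPSC clones 1 and 2, and none of the 10 was at 0 in any library. The summed level of 8 pluripotency markers was 1.23 CPM in fibroblasts (POU5F1 and NANOG at 0), 451 CPM in iNSLCs, and 1156 and 1204 CPM in the clones. The vectors carried OCT4 (POU5F1), SOX2, LIN28 and NANOG, and the part of vector transcripts in these levels was not tested. The 6 neural stem cell markers summed to 52.7 CPM in fibroblasts, 769 CPM in iNSLCs, and 775 and 886 CPM in the clones. SOX2, counted in both lists, stood at 134 CPM in iNSLCs and 211 and 254 CPM in the clones, and NES at 384 CPM and at 461 and 505 CPM. MSI1 and FABP7 were higher in iNSLCs (151 and 83.0 CPM) than in clone 1 (85.2 and 15.0 CPM) and clone 2 (97.1 and 22.5 CPM). Of the 6, PAX6 was lower in iNSLCs (14.6 CPM) than in fibroblasts (21.5 CPM), and SOX1 reached 2.16 CPM in iNSLCs. The iNSLC library stood at 38.6% of the summed fibroblast marker level of the fibroblast library, and the iPSC clones at 0.6999% and 0.668%. Mouse embryonic feeder cells were part of the study's marmoset protocol, and the part of feeder RNA in these porcine counts was not tested.

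ID1 could not be followed. It had 0 counts in fibroblasts and in iNSLCs, 1 count in iPSC clone 1 and 2 counts in clone 2, all under the floor of 3 counts, and it did not pass the filter on low counts. The table counts ID1 (ENSSSCG00000037016) on the plus strand of chromosome 17, bases 35316620 to 35322100 of Sscrofa11.1. RefSeq places the same gene over 1225 bases, and all 1225 of them lie under a single exon of BCL2L1, which runs from 35315475 to 35318840 on the minus strand. Of the ID1 exonic bases used for counting, 3260 lay outside that exon, and all 3260 lay beyond the end of ID1 in RefSeq.

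**Figure D1:**
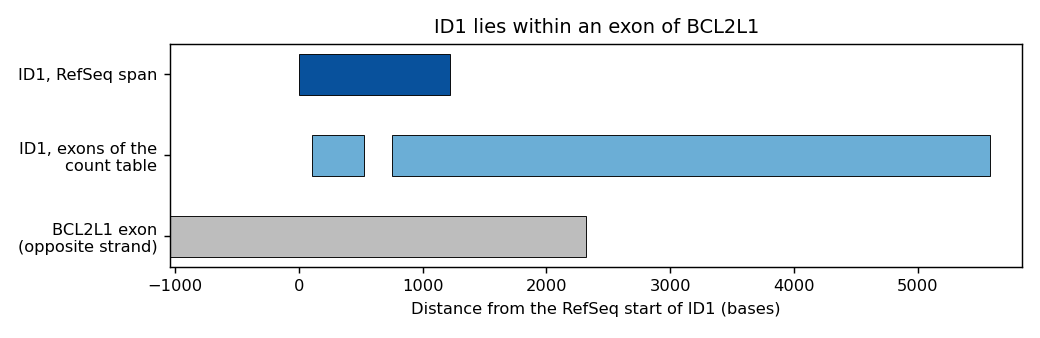
ID1 and the BCL2L1 exon over it, drawn by distance in bases from the RefSeq start of ID1 (x axis), with the RefSeq span of ID1 on top, the ID1 exons of the count table in the middle and the opposite-strand BCL2L1 exon at the bottom. All 1225 bases of the RefSeq span sit over the BCL2L1 exon, and the 3260 counted bases outside it lie past the RefSeq end.

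As counted, ID1 had 38% of its exonic bases under that exon. Over the whole table, genes covered more fully were mostly without counts. Of 284 genes with at least 90% of their exonic bases under exons of the opposite strand, 248 (87.3%) had 0 counts in every library, against 5813 of 20466 genes (28.4%) that shared no exonic base with another gene. JUNB, an immediate early gene that BMP can induce, picked out after its values were seen, was among the covered genes and also had 0 counts in all libraries. BCL2L1 (ENSSSCG00000035357), an anti-apoptotic gene, had 1852 counts in fibroblasts, 1284 in iNSLCs, and 1808 and 2840 in iPSC clones 1 and 2. Whether reads of ID1 were lost at this overlap was not tested, since the reads were not analysed here, and the low ID1 count is not read as absence of its transcript. The other 8 members shared no exonic base with another gene and all 8 were tested.

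Compared per length, ID3 was the most abundant member in every library. Its level was 473 CPM per kilobase of counted exon in fibroblasts, 147 in iNSLCs, and 111 and 160 in iPSC clones 1 and 2. The next member differed between the stages. It was ID2 in fibroblasts (41.0 CPM per kilobase) and in the iPSC clones (16.5 and 22.1), and MSX1 in iNSLCs (35.3, beside 32.9 for ID2). At the low end stood BAMBI in fibroblasts (1.19 CPM per kilobase) and SMAD9 in iNSLCs (3.21, beside 4.03 for SMAD6) and in the clones (1.18 and 1.68). These lengths are those of the annotation, and SMAD6 has a short one (1491 bases, against 5084 for SMAD9).

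**Figure D2:**
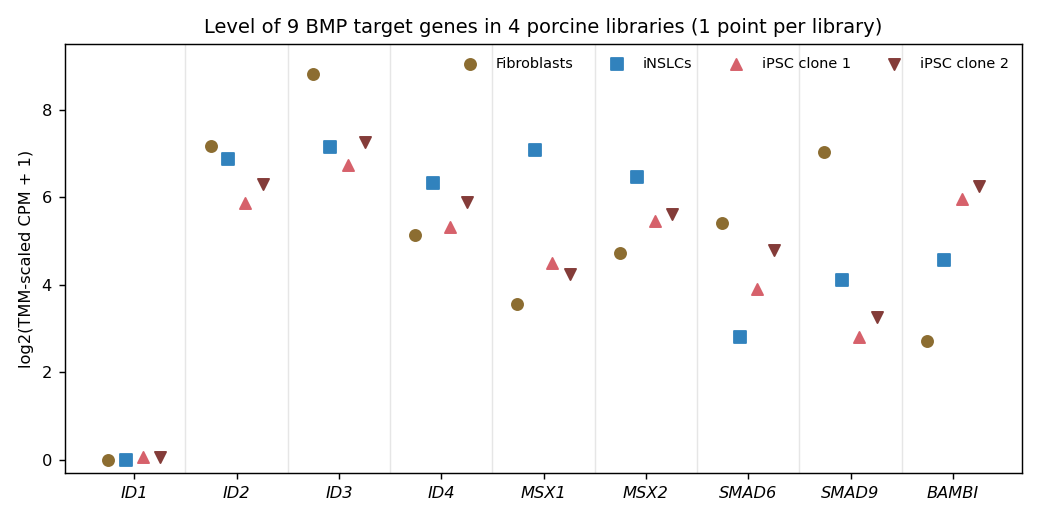
Level of the 9 members as log2(TMM-scaled CPM + 1) (y axis), 1 point per library, with fibroblasts, iNSLCs, iPSC clone 1 and iPSC clone 2 from left to right within each gene. ID1 is at the floor throughout, SMAD9 is highest in fibroblasts (129 CPM), MSX1 in iNSLCs (134 CPM) and BAMBI in iPSC clone 2 (75.1 CPM).

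Between iPSCs and fibroblasts the members moved in both directions. BAMBI, MSX1 and MSX2 rose in iPSCs, SMAD9, ID3 and ID2 fell, and ID4 and SMAD6 did not pass the test. Thus 3 of the 8 tested members were higher, beside 29.6% of all 15739 tested genes, and 3 were lower, beside 27.5% of all tested genes. Their median log2 ratio was -0.25, against 0.11 for all tested genes. It turned positive with scaling by total counts alone (0.32) and with no filter on low counts (0.45), where ID1 entered as well. Against iNSLCs, 2 of the 8 were higher in iPSCs (BAMBI and SMAD6), beside 14.1% of all tested genes, and 3 were lower (MSX1, MSX2 and SMAD9), beside 14.1% of all tested genes. In 4 of the 6 alternative settings ID2 joined them and 4 were lower. The median of the members was -0.73 there and that of all tested genes 0 on the log2 scale. The test was the edgeR quasi-likelihood test over all 4 libraries, and its p-values rest on the spread between the 2 iPSC clones of 1 animal alone. Both comparisons use the same iPSC libraries.

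**Figure D3:**
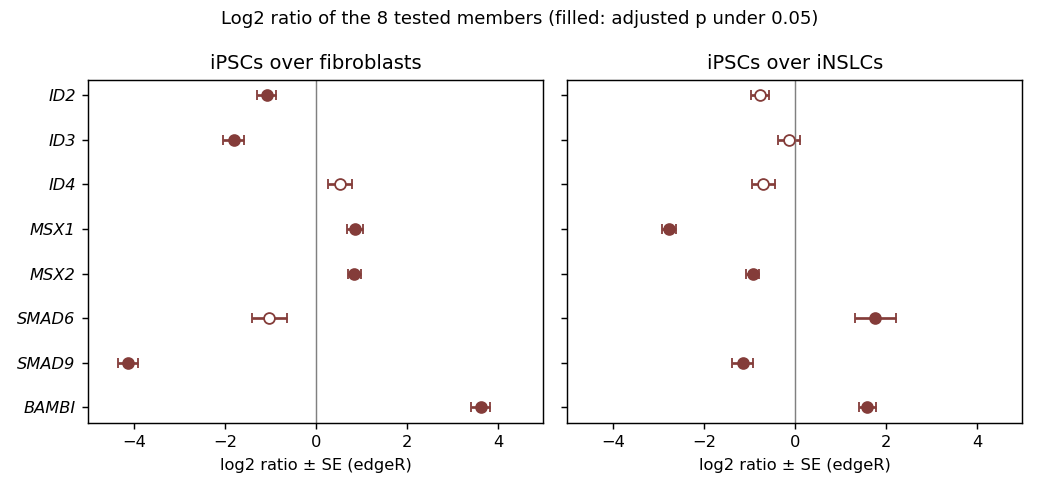
Log2 ratio of the 8 tested members (x axis, edgeR fit, bars ± SE) for iPSCs over fibroblasts (left) and iPSCs over iNSLCs (right), with filled points where the adjusted p was under 0.05. BAMBI lies to the right of 0 in both panels (3.62 and 1.59) and SMAD9 to the left in both (-4.13 and -1.15), whereas MSX1 lies at 0.86 on the left panel and at -2.77 on the right.

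ID2 (ENSSSCG00000008645, chromosome 3, 127499410 to 127503297, minus strand), which restrains differentiation in many lineages, stood at 144 CPM in fibroblasts, 116 CPM in iNSLCs, and 57.8 and 77.6 CPM in iPSC clones 1 and 2. Both clones lay below the iNSLC library, and that library below the fibroblasts. In iPSCs (67.7 ± 14.0 CPM, SD, n = 2 clones) ID2 was 2.12-fold lower than in fibroblasts (log2 ratio -1.09 ± 0.20 SE, edgeR adjusted p = 0.00978), a call that was lost with scaling by total counts alone (-0.51, edgeR adjusted p = 0.0789). Against iNSLCs the log2 ratio was -0.77 ± 0.20 (edgeR adjusted p = 0.0510) and did not pass, but it did pass in 4 of the 6 alternative settings, namely RLE scaling (edgeR adjusted p = 0.0493), total-count scaling (0.0442), the fit of only the compared groups (0.0404) and DESeq2 (0.0175). The range over the settings tried was 0.0175 to 0.0554.

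ID3 (ENSSSCG00000039514, chromosome 6, 81422546 to 81424169, minus strand), a close relative that is commonly induced together with ID1, stood at 450.4 CPM in fibroblasts, 140.3 CPM in iNSLCs, and 106 and 152 CPM in the clones. The fibroblasts stood apart from the other 3 libraries, and the iNSLC library fell between the clones. In iPSCs (129 ± 33.0 CPM) ID3 was 3.49-fold lower than in fibroblasts (log2 ratio -1.80 ± 0.23, edgeR adjusted p = 0.00329). Against iNSLCs the log2 ratio was -0.12 ± 0.24 (edgeR adjusted p = 0.728), and its sign followed the clone, with 0.12 for clone 2 and -0.41 for clone 1.

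ID4 (ENSSSCG00000024312, chromosome 7, 15281444 to 15287737, plus strand), known for its part in neural progenitors, had a different order of levels, with 34.0 CPM in fibroblasts, 79.2 CPM in iNSLCs, and 39.1 and 58.3 CPM in the clones. The iNSLC library was the highest and both clones lay between it and the fibroblasts. Neither difference of the iPSCs (48.7 ± 13.6 CPM) passed, with a log2 ratio of 0.52 ± 0.27 against fibroblasts (edgeR adjusted p = 0.156) and of -0.70 ± 0.25 against iNSLCs (edgeR adjusted p = 0.106). With scaling by total counts alone the comparison with fibroblasts did pass (1.09, edgeR adjusted p = 0.0192).

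The makeup of the ID counts differed between the stages, a comparison chosen after the values were seen. Of the counts of ID2, ID3 and ID4 together, ID3 held 71.7% in fibroblasts (95% exact binomial interval 71.2% to 72.2%), 41.9% in iNSLCs (40.9% to 42.9%), and 52.1% (50.7% to 53.6%) and 52.8% (52.0% to 53.7%) in iPSC clones 1 and 2. The share of ID4 was 5.41% in fibroblasts, 23.6% in iNSLCs, and 19.3% and 20.2% in the clones. The clones were alike in this makeup, although the 3 genes summed to 202 CPM in clone 1 and 288 CPM in clone 2. The sum was 335 CPM in iNSLCs and 628 CPM in fibroblasts. Shares within a library do not depend on the scaling between libraries, and these intervals, like all others given here, cover counting error only.

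E proteins, the partners that ID proteins capture, were measured beside them. TCF3 stood at 51.8 CPM in fibroblasts, 166 CPM in iNSLCs, and 111 and 116 CPM in the clones. It was 2.19-fold higher in iPSCs than in fibroblasts (edgeR adjusted p = 0.00213) and 1.46-fold lower than in iNSLCs (edgeR adjusted p = 0.0306). TCF12 stood at 328 CPM in fibroblasts, 247 CPM in iNSLCs, and 152 and 130.03 CPM in the clones. It was lower in iPSCs in both comparisons, 2.32-fold against fibroblasts (edgeR adjusted p = 0.00260) and 1.75-fold against iNSLCs (edgeR adjusted p = 0.0211). TCF4, with 93.2 CPM in fibroblasts, 141 CPM in iNSLCs, and 117 and 112 CPM in the clones, passed in neither (edgeR adjusted p = 0.0910 and 0.126), although against fibroblasts it was called higher with total-count scaling and with the filter at 10 CPM.

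MSX1 (ENSSSCG00000008727, chromosome 8, 5626495 to 5632643, minus strand) was the member with the sharpest level in iNSLCs. It stood at 10.8 CPM in fibroblasts, 134 CPM in iNSLCs, and 21.4 and 17.9 CPM in the clones. The iNSLC library was apart from the other 3, and both clones were above the fibroblasts. In iPSCs (19.7 ± 2.45 CPM) MSX1 was 6.84-fold lower than in iNSLCs (log2 ratio -2.77 ± 0.15, edgeR adjusted p = 0.00189) and 1.81-fold higher than in fibroblasts (log2 ratio 0.86 ± 0.17, edgeR adjusted p = 0.0122).

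MSX2 (ENSSSCG00000034500, chromosome 16, 49764594 to 49772121, minus strand) followed the same order with a smaller span. It stood at 25.4 CPM in fibroblasts, 86.9 CPM in iNSLCs, and 43.0 and 48.0 CPM in the clones. The clones lay between the other libraries and were close to each other. In iPSCs (45.5 ± 3.54 CPM) MSX2 was 1.91-fold lower than in iNSLCs (log2 ratio -0.93 ± 0.13, edgeR adjusted p = 0.0126) and 1.80-fold higher than in fibroblasts (log2 ratio 0.84 ± 0.14, edgeR adjusted p = 0.00745).

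MSX1 made up 60.7% of the MSX1 and MSX2 counts in iNSLCs (95% exact binomial interval 59.5% to 61.9%). Its share was 29.9% in fibroblasts (27.7% to 32.1%), and 33.2% (30.9% to 35.7%) and 27.2% (25.6% to 28.8%) in iPSC clones 1 and 2. The fibroblast interval overlapped those of both clones, and the iNSLC interval overlapped none. The intervals of the clones did not overlap each other either. Since they cover counting error only, their overlap does not measure how alike the stages are. Markers of the neural crest, a tissue in which both MSX genes are expressed, summed over 6 genes to 26.3 CPM in fibroblasts, 246 CPM in iNSLCs, and 205 and 104 CPM in the clones. Of the 6, TFAP2A (93.0 CPM), TFAP2B (33.2 CPM) and PAX3 (21.6 CPM) were highest in iNSLCs, as was the defining marker SOX10 (3.73 CPM). FOXD3 was higher in the clones (10.2 and 10.6 CPM) than in iNSLCs (1.19 CPM), and ERBB3 stood at 2.72 CPM in fibroblasts, 93.1 CPM in iNSLCs, and 185 and 85.6 CPM in the clones. The part of such cells in the MSX levels was not tested.

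SMAD6 (ENSSSCG00000004948, chromosome 1, 164657086 to 164734703, plus strand) had its lowest level in iNSLCs. It stood at 41.3 CPM in fibroblasts, 6.002 CPM in iNSLCs, and 14.0 and 26.5 CPM in the clones. The clones lay between the other libraries and were further apart from each other than for any other tested member. In iPSCs (20.2 ± 8.86 CPM) SMAD6 was 3.39-fold higher than in iNSLCs (log2 ratio 1.76 ± 0.45, edgeR adjusted p = 0.0484). This call was lost with no filter on low counts (edgeR adjusted p = 0.0555) and with a filter at 10 CPM (edgeR adjusted p = 0.0646), and the range over all settings was 0.00106 to 0.0646. Taken alone, clone 2 was 4.42-fold and clone 1 2.33-fold above the iNSLC library. Against fibroblasts SMAD6 did not pass (log2 ratio -1.02 ± 0.39, edgeR adjusted p = 0.0790), although DESeq2 called it lower (adjusted p = 0.0426).

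SMAD9 (ENSSSCG00000009357, chromosome 11, 12701511 to 12765790, minus strand), the member that is both a target and a receptor-activated SMAD, was mainly a fibroblast transcript here. It stood at 129 CPM in fibroblasts, 16.3 CPM in iNSLCs, and 5.995 and 8.52 CPM in the clones. The clones lay below the iNSLC library, and the fibroblasts were far above the rest. In iPSCs (7.26 ± 1.79 CPM) SMAD9 was 17.6-fold lower than in fibroblasts (log2 ratio -4.13 ± 0.22, edgeR adjusted p = 0.000372) and 2.22-fold lower than in iNSLCs (log2 ratio -1.15 ± 0.23, edgeR adjusted p = 0.0275).

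The balance of SMAD6 and SMAD9 differed between iNSLCs and iPSCs. SMAD6 held 24.3% of their joint counts in fibroblasts (95% exact binomial interval 23.3% to 25.2%), 26.9% in iNSLCs (23.5% to 30.5%), and 70.0% (65.6% to 74.1%) and 75.7% (73.5% to 77.8%) in iPSC clones 1 and 2. Per length SMAD6 was above SMAD9 in every library, with 27.7 beside 25.4 CPM per kilobase in fibroblasts, 4.03 beside 3.21 in iNSLCs, 9.37 beside 1.18 in clone 1 and 17.8 beside 1.68 in clone 2. The counted SMAD6 begins after its RefSeq start (164657086, against 164652602), and the counted SMAD9 span reaches beyond RefSeq at both ends. How far the order per length depends on these gene models was not tested. The intervals of the shares of fibroblasts and iNSLCs overlapped, as did those of the clones, while the summed level was 170.4 CPM in fibroblasts, 22.3 CPM in iNSLCs, and 19.97 and 35.03 CPM in the clones. The iNSLC library thus had a low sum with a SMAD6 share near that of the fibroblasts, and the clones had a low sum with a higher SMAD6 share. Overlap of counting intervals does not show that shares are equal.

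**Figure D4:**
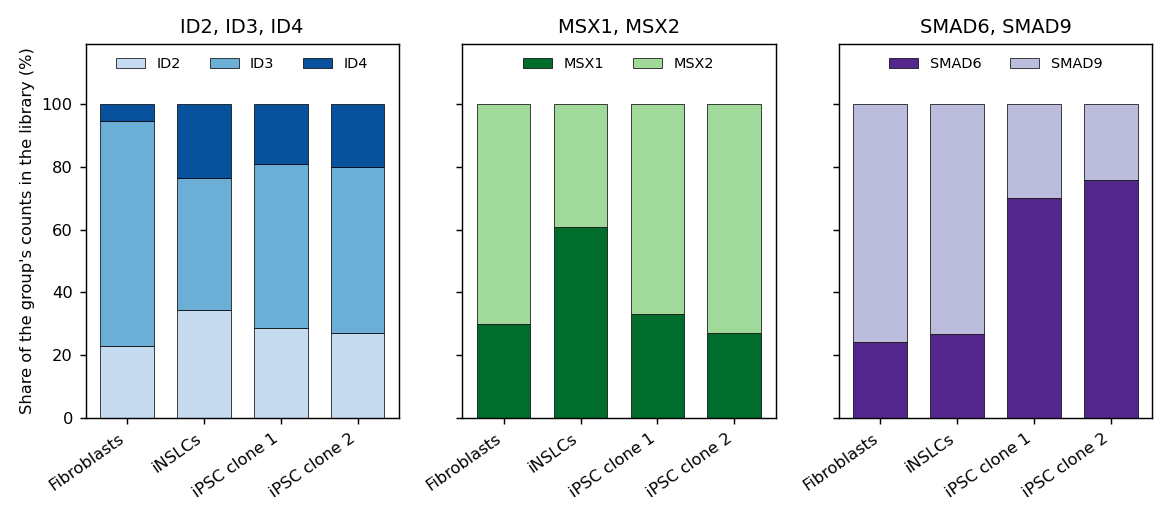
Share of counts (y axis, %) held by each gene within ID2, ID3 and ID4 (left), MSX1 and MSX2 (middle) and SMAD6 and SMAD9 (right), as stacked bars for fibroblasts, iNSLCs, iPSC clone 1 and iPSC clone 2. ID3 takes 71.7% of the ID counts in fibroblasts, MSX1 takes 60.7% of the MSX counts in iNSLCs, and SMAD6 takes 70.0% and 75.7% of the SMAD counts in the clones.

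BAMBI (ENSSSCG00000011014, chromosome 10, 40053341 to 40060319, plus strand) was higher at each successive stage. It stood at 5.55 CPM in fibroblasts, 22.8 CPM in iNSLCs, and 61.4 and 75.1 CPM in the clones. The clones stood above the iNSLC library, and that library above the fibroblasts. In iPSCs (68.3 ± 9.72 CPM) BAMBI was 12.3-fold higher than in fibroblasts (log2 ratio 3.62 ± 0.21, edgeR adjusted p = 0.000420) and 3.003-fold higher than in iNSLCs (log2 ratio 1.59 ± 0.19, edgeR adjusted p = 0.00819).

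The first step, from fibroblasts to iNSLCs, is 1 library against another, so it is described by ratios with a counting interval and has no test and no replicate check. MSX1 was 12.4 times as high in iNSLCs as in fibroblasts (95% exact interval 11.3 to 13.6), BAMBI 4.10 times (3.54 to 4.76), MSX2 3.42 times (3.19 to 3.67) and ID4 2.33 times (2.18 to 2.49). SMAD9 was 7.92-fold lower in iNSLCs (7.21 to 8.72), SMAD6 6.89-fold lower (5.89 to 8.10) and ID3 3.21-fold lower (3.10 to 3.32). ID2 differed least, with a ratio of 0.80 (0.77 to 0.84), and its direction turned with scaling by total counts alone (log2 ratio 0.27, against -0.32 as scaled). So 4 members were at least 2-fold higher, beside 24.7% of 13473 genes at 1 CPM or more in either library, and 3 were at least 2-fold lower, beside 21.0% of them. In iNSLCs the 3 lower members stood at 31.1% (ID3), 14.5% (SMAD6) and 12.6% (SMAD9) of their fibroblast level, beside 38.6% for the summed fibroblast markers. Single fibroblast markers ranged from 12.6% to 1777% of their fibroblast level, with a median of 43.4% and only POSTN above 100%. How far fibroblasts left in the iNSLC culture, or any feeder cells, contributed to these levels was not tested.

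The iPSC clones differed less. SMAD6 was 1.90 times as high in clone 2 as in clone 1 (95% exact interval 1.68 to 2.15), followed by ID4 (1.49), ID3 (1.44), SMAD9 (1.42), ID2 (1.34), BAMBI (1.22) and MSX2 (1.12). MSX1 was the single member lower in clone 2 (ratio 0.84, 0.75 to 0.94). None of the 8 was 2-fold apart, while of 13214 genes at 1 CPM or more in either clone 1.79% were at least 2-fold higher in clone 2 and 3.22% at least 2-fold lower.

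The rest of the pathway was described by lists of genes, of which those that passed the filter on low counts are counted. Of all 15739 tested genes, 29.6% were called higher and 27.5% lower in iPSCs against fibroblasts, and 14.1% and 14.1% against iNSLCs. The median log2 ratios of all tested genes were 0.11 and 0. Among ligands, 9 of 14 listed genes were tested, and 7 rose and none fell in iPSCs against fibroblasts. Their median log2 ratio was 6.78 as fitted, or 3.97 with the 4 genes at 0 counts in fibroblasts held at the floor of 3 counts. The 4 genes at 0 counts in fibroblasts could not fall in that comparison. Against iNSLCs 6 rose and 1 fell (GDF7), with a median of 2.42, whereas DESeq2 called 3 higher and none lower. BMP10, with 0 counts in fibroblasts and iNSLCs and only 0.844 and 0.830 CPM in the clones, was among the risers in both comparisons. With the filter at 10 CPM, 5 ligands were tested. Of these, 5 rose against fibroblasts and 3 against iNSLCs, and none fell. BMP2, a canonical inducer of the ID genes, stood at 1.06 CPM in fibroblasts, 16.5 CPM in iNSLCs, and 116 and 117 CPM in the clones, and was 7.05-fold higher in iPSCs than in iNSLCs (edgeR adjusted p = 0.00166). BMP5 was listed with 0 counts in fibroblasts, 42.4 CPM in iNSLCs, and 28.4 and 42.7 CPM in the clones. This put it at least 548-fold higher in iPSCs than in fibroblasts against the floor of 3 counts in that library (edgeR adjusted p = 0.000426). GDF3, an embryonic ligand of pluripotent cells, had 0 counts in fibroblasts, 0.628 CPM in iNSLCs, and 11.99 and 6.16 CPM in the clones, and was 14.3-fold higher in iPSCs than in iNSLCs (edgeR adjusted p = 0.0177). BMP7 had 2 counts in fibroblasts, 13.8 CPM in iNSLCs, and 20.6 and 28.3 CPM in the clones.

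Receptors and co-receptors went both ways. Of 10 tested, 4 rose and 4 fell in iPSCs against fibroblasts (median log2 ratio -0.14, or 0.43 with total-count scaling), beside 29.6% and 27.5% of all tested genes. Against iNSLCs none rose and 1 fell (median 0.10), beside 14.1% and 14.1% of all tested genes. The activin type II receptor gene ACVR2B stood at 3.28 CPM in fibroblasts, 66.4 CPM in iNSLCs, and 46.9 and 51.6 CPM in the clones, and was 15.0-fold higher in iPSCs than in fibroblasts (edgeR adjusted p = 0.000259). ENG, the endoglin co-receptor, stood at 152 CPM in fibroblasts, 12.3 CPM in iNSLCs, and 7.85 and 10.6 CPM in the clones, and was 16.4-fold lower in iPSCs than in fibroblasts (edgeR adjusted p = 0.000310). ACVRL1, a type I receptor best known in endothelium, was the receptor that fell against iNSLCs (3.17-fold, edgeR adjusted p = 0.0251). The 4 endothelial markers summed to 19.5 CPM in fibroblasts, 49.7 CPM in iNSLCs, and 142 and 190 CPM in the clones. Most of the clone sums came from KDR (124 and 163 CPM), and CDH5 and TEK were also highest in the clones. PECAM1 went the other way, with 19.5 CPM in fibroblasts, 21.5 CPM in iNSLCs, and 2.03 and 5.20 CPM in the clones. The part of endothelial cells in the receptor levels was not tested. RGMA, a BMP co-receptor, was 5.91-fold higher in iPSCs than in fibroblasts (edgeR adjusted p = 0.000578).

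Of the SMADs that carry the signal beside SMAD9, SMAD1 rose in iPSCs and SMAD4 passed in neither comparison, except that total-count scaling called it higher against fibroblasts (log2 ratio 0.49). SMAD1 stood at 46.8 CPM in fibroblasts, 37.5 CPM in iNSLCs, and 71.3 and 83.5 CPM in the clones, which was 1.65-fold higher in iPSCs than in fibroblasts (edgeR adjusted p = 0.0149) and 2.06-fold higher than in iNSLCs (edgeR adjusted p = 0.0141). SMAD5 stood at 167 CPM in fibroblasts, 98.9 CPM in iNSLCs, and 77.0 and 90.9 CPM in the clones, and was 1.99-fold lower in iPSCs than in fibroblasts (edgeR adjusted p = 0.00497), a call that was lost with total-count scaling (edgeR adjusted p = 0.0647). The SMAD9 transcript, at 5.995 and 8.52 CPM in the clones, was thus the one of these 3 receptor-activated SMADs with the largest difference from fibroblasts.

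Secreted antagonists, which bind ligands outside the cell, were mixed as well. Of 14 tested, 6 rose and 6 fell in iPSCs against fibroblasts (median log2 ratio 0.29), beside 29.6% and 27.5% of all tested genes. Against iNSLCs 5 rose and 3 fell (median 0.68), or 3 and 3 with no filter on low counts, beside 14.1% and 14.1% of all tested genes. FST, which captures activin and some BMPs, stood at 3.82 CPM in fibroblasts, 114 CPM in iNSLCs, and 289.5 and 319 CPM in the clones, and was 79.5-fold higher in iPSCs than in fibroblasts (edgeR adjusted p = 0.000168). CHRDL1, a chordin-like protein, stood at 644 CPM in fibroblasts, 123 CPM in iNSLCs, and 4.39 and 8.15 CPM in the clones, and was 100.3-fold lower in iPSCs than in fibroblasts (edgeR adjusted p = 0.000370). CER1, a NODAL and BMP antagonist of early endoderm, differed between the clones, with 33.4 CPM in clone 1 and 9.97 CPM in clone 2, against 0.140 CPM in iNSLCs (edgeR adjusted p = 0.0195). The 7 mesendoderm markers summed to 8.10 CPM in fibroblasts, 13.2 CPM in iNSLCs, and 333 and 295 CPM in the clones, and their part in the CER1 level was not tested. NOG, the noggin gene, was 4.02-fold higher in iPSCs than in iNSLCs (6.05 ± 0.99 CPM against 1.501 CPM, edgeR adjusted p = 0.0184). Its highest level was in fibroblasts (12.5 CPM), and against these it was lower in iPSCs (log2 ratio -1.04, edgeR adjusted p = 0.0311).

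Among 8 other negative regulators, none rose and 5 fell in iPSCs against fibroblasts (median log2 ratio -0.89), or 3 with total-count scaling. The shares of all tested genes were 29.6% and 27.5%. Against iNSLCs 3 rose and 1 fell (median 0.45), beside 14.1% and 14.1% of all tested genes. SMURF1, a ubiquitin ligase for SMADs, was 3.32-fold lower in iPSCs than in fibroblasts (edgeR adjusted p = 0.000623). SMAD7, the other inhibitory SMAD, shared with SMAD6 its lowest level in iNSLCs. It stood at 42.0 CPM in fibroblasts, 8.62 CPM in iNSLCs, and 56.7 and 35.8 CPM in the clones, and was 5.35-fold higher in iPSCs than in iNSLCs (edgeR adjusted p = 0.0127).

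More of the other genes known as BMP targets fell than rose in iPSCs, in a list chosen with earlier results of these data known. Of 16 tested, 4 rose and 8 fell against fibroblasts (median log2 ratio -1.57), beside 29.6% and 27.5% of all tested genes. Against iNSLCs 2 rose and 10 fell (median -1.48), beside 14.1% and 14.1% of all tested genes. DLX5, a homeobox gene of bone and neural crest, stood at 1.90 CPM in fibroblasts, 44.0 CPM in iNSLCs, and 3.38 and 4.98 CPM in the clones, so that its high library was the same as for MSX1 and MSX2. It was 10.4-fold lower in iPSCs than in iNSLCs (edgeR adjusted p = 0.00404), as was its neighbour in the genome DLX6 (13.04-fold, edgeR adjusted p = 0.00867). Against fibroblasts both were among the genes that rose in iPSCs (log2 ratios 1.15 and 2.32, edgeR adjusted p = 0.0358 and 0.0295). DLX6 was low in that comparison, with 0.130 CPM in fibroblasts and 0.507 and 0.787 CPM in the clones. GATA2, a factor of blood and trophoblast, was 7.09-fold lower in iPSCs than in iNSLCs (edgeR adjusted p = 0.00243). The 5 trophoblast markers, GATA2 among them, summed to 77.0 CPM in fibroblasts, 146 CPM in iNSLCs, and 90.6 and 69.1 CPM in the clones. ATOH8, a helix-loop-helix factor, stood at 21.9 CPM in fibroblasts, 8.10 CPM in iNSLCs, and 1.01 and 1.31 CPM in the clones, and was 18.5-fold lower in iPSCs than in fibroblasts (edgeR adjusted p = 0.000528).

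**Figure D5:**
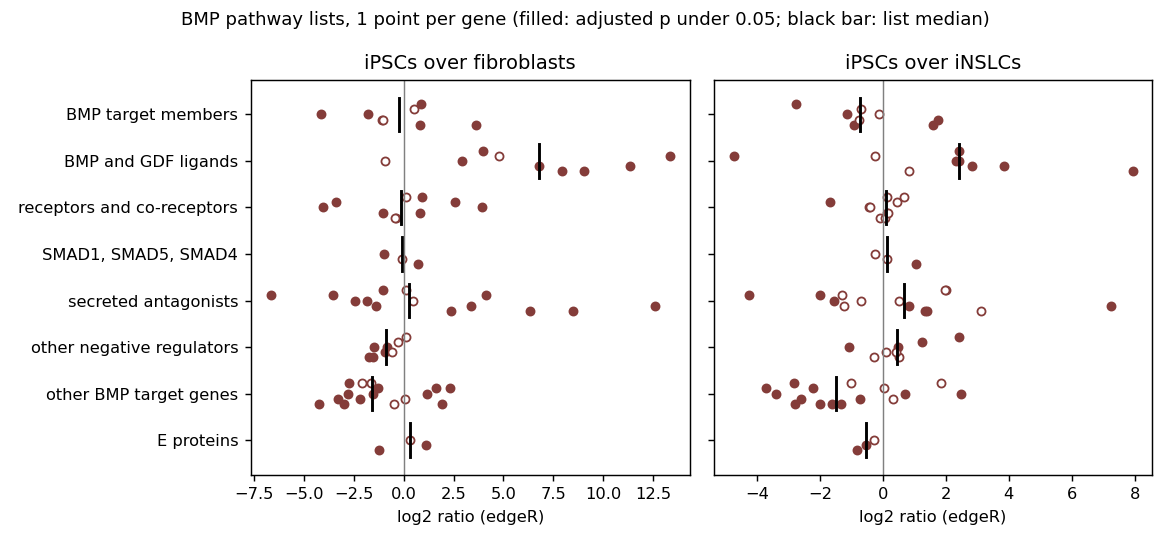
Log2 ratio (x axis, edgeR fit) of each tested gene of 8 BMP pathway lists for iPSCs over fibroblasts (left) and iPSCs over iNSLCs (right), with filled points where the adjusted p was under 0.05 and black bars at list medians. Ligands lie furthest to the right (medians 6.78 and 2.42, where fitted values of genes with 0 counts in fibroblasts are not bounds), the other BMP targets lie to the left in both panels (medians -1.57 and -1.48), and the members spread to both sides.

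For each measured member, the gene with the most similar levels over the 4 libraries was sought among 9485 genes at 10 CPM or more in some library. The measure was the root mean square distance of centred log2 levels, and 4 libraries allow only a coarse match. MSX2 was nearest to E2F2 (0.03 on the log2 scale), ID2 to ANO8 (0.05), SMAD9 to GASK1B (0.05) and ID3 to ARHGEF25 (0.06). BAMBI was nearest to AP1S2 (0.07) and ID4 to ATRNL1 (0.08). MSX1 and SMAD6 had the least close neighbours, ADGRD1 (0.12) and HAPLN4 (0.18). HAPLN4 stood at 30.9 CPM in fibroblasts, 4.47 CPM in iNSLCs, and 10.8 and 15.0 CPM in the clones, which repeats the low iNSLC value of SMAD6. No other member was the nearest gene of a member.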

How the data were processed

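The submitters' processing notes name Trim Galore 0.4.0, STAR 2.5.3a, featureCounts 1.5.2 and the Sscrofa11.1 assembly. The deposited values are whole-number counts per gene, not normalized by the authors, and the tables of single samples held the same counts as the series table for all 25880 genes. No source used here states the strand setting of the counting. Symbols came from Ensembl identifiers for 14857 genes and from position for 1492.

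Counts were scaled by TMM and tested with the edgeR 4.0.16 quasi-likelihood F test (two-sided, R 4.3.3, limma 3.58.1) over all 4 libraries. Of the genes, 15739 passed filterByExpr, p-values were adjusted over these by Benjamini-Hochberg, and calls were made at 0.05. The fit had 1 residual degree of freedom, from the clones, whose spread was used for the single libraries too (common biological coefficient of variation 0.198). The edgeR comparison of iPSCs with fibroblasts was tried on simulated counts. These held 4-fold differences in both directions, in far fewer genes than were called here. The 2-library ratios have 95% exact conditional binomial intervals and a 2-fold limit. The alternatives tried were scaling by RLE or by total counts, other filters, DESeq2 1.42.0, fits of only the compared groups, each clone left out, a 4-fold limit and a pseudocount of 1 CPM.

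The text names all members, all E proteins, up to 4 called genes per list with the largest ratios, and the nearest gene of each member. Members and lists were chosen with earlier results of these data known. Promoter motifs were not analysed here. From the neural stem cell markers, 1 gene was left out and is not reported here.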

Additional observations from a re-analysis of the deposited data

How the results depend on the processing

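Against fibroblasts 3 members were higher and 3 lower in iPSCs with RLE scaling, both other filters and the fit of only the compared groups. With total-count scaling ID4 joined the higher members and ID2 left the lower (4 and 2), and with DESeq2 SMAD6 joined the lower (3 and 4). Against total counts, the TMM factors shifted log2 ratios by -0.57 between iPSCs and fibroblasts and by -0.58 between iNSLCs and fibroblasts. The higher genes were 72.8% of all calls in iPSCs against fibroblasts with total counts and 51.9% with TMM. Between iNSLCs and fibroblasts total counts reversed ID2 (log2 ratio 0.27). Against iNSLCs, 1 member (BAMBI) was higher in iPSCs with no filter on low counts and 1 with the filter at 10 CPM, since SMAD6 was lost (log2 ratios 1.75 and 1.72). ID2 joined the lower members there (4) with RLE and total-count scaling, DESeq2 and the fit of only the compared groups. The cause was not tested. Leaving out 1 clone put the ID3 ratio against iNSLCs between -0.41 and 0.12, so that it reversed without clone 1, and values without a clone have no test. With a 4-fold limit, 2 members were higher in iNSLCs than in fibroblasts. Of 96 tested values of single members under these settings, 87 kept direction and call. No paired analysis was possible because all 4 cultures came from 1 animal, which leaves no animals to pair over. With 1 library each of fibroblasts and iNSLCs, the spread of these cell types is unknown.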
